A study of Mus musculus with 18 samples.

Results

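The response of wild-type (WT) mouse macrophages to interferon gamma (IFN-gamma) was read from messenger RNA, by setting 3 libraries of treated cells against 3 libraries of untreated cells. These 6 libraries were chosen by their labels, out of 18 in the series. The treated group was WT bone marrow-derived macrophages given recombinant mouse IFN-gamma for 24 h, and its control was WT macrophages left untreated. Both were grown out of femoral marrow over 7 days with macrophage colony-stimulating factor (MCSF, 30 ng/mL) and 15% serum, so that every culture carried that factor. The other 12 libraries are WT cells given interleukin 4 (IL-4) for 24 h, and Ldha knockout (KO) cells given IFN-gamma, given IL-4 or left untreated, with 3 libraries in each group. Each library carries a code that recurs across treatments within a genotype, 1 code for each replicate number, and libraries with 1 code were read as coming from 1 animal. The sources used here do not give the dose of IFN-gamma, nor the strain, sex or age of the mice. A marrow culture is grown from precursors in a dish and is a model of macrophages, not a sample of any tissue's own. Values below are normalized counts in the order of replicates 1, 2 and 3. A log2 change is the treated mean minus the untreated mean of log2(normalized count + 1), given ± its standard error, and it understates the change of low genes. Adjusted p-values come from limma with Benjamini-Hochberg adjustment over all genes tested, and a gene was called at an adjusted p under 0.05.

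IFN-gamma is the cytokine by which T cells and NK cells activate macrophages. Its receptor, made of the chains IFNGR1 and IFNGR2, works through the kinases JAK1 and JAK2, which phosphorylate factors of the STAT family. These bind gamma-activated sites (GAS) in DNA, and the factor IRF1, made early in the response, acts through interferon-stimulated response elements (ISRE). The programme is known for guanylate-binding proteins and immunity-related GTPases that attack intracellular pathogens, for antigen presentation on MHC molecules, for T cell-attracting chemokines and for nitric oxide. Macrophages treated in this way are called classically activated or M1, and those treated with IL-4 are called alternatively activated or M2.

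Promoters of 6 genes are shown because their levels carry the response from its regulators (Irf1, Irf8), through its feedback inhibitor (Socs1), to its effectors (Gbp5, Ifit1, Cxcl9). They are RefSeq windows of GRCm38.p6, from 250 bases before to 50 bases after the start of a gene. Capitals mark matches to GAS (TTCNNNGAA) or ISRE (TTTCNNTTTC), searched on both strands, and a match is a description of letters, not a site shown to be bound.
Irf1, chr11:53769764-53770063, plus strand: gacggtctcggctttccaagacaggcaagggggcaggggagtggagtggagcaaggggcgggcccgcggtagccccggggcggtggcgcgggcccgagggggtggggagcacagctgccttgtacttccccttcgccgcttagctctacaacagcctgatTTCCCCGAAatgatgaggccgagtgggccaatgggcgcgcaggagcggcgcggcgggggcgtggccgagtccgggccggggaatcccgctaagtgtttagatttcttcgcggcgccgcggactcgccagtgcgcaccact
Irf8, chr8:120736108-120736407, plus strand: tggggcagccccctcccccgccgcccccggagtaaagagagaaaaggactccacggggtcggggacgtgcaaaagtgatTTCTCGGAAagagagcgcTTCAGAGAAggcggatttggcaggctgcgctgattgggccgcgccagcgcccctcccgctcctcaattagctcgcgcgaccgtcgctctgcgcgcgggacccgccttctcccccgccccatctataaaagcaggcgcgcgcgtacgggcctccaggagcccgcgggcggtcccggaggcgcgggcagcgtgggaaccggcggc
Socs1, chr16:10785487-10785786, minus strand: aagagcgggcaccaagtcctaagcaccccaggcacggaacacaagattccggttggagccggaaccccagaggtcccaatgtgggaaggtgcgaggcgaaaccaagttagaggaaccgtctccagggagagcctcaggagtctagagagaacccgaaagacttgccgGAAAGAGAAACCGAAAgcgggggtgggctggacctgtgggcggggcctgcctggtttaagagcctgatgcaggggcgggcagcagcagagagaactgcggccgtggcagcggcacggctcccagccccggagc
Gbp5, chr3:142496684-142496983, plus strand: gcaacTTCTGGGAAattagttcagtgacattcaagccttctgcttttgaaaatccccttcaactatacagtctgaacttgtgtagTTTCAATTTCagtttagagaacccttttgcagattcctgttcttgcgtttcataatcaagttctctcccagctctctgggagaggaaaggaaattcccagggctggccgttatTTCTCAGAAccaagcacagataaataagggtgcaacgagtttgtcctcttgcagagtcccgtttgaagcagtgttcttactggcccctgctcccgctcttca
Ifit1, chr19:34640639-34640938, plus strand: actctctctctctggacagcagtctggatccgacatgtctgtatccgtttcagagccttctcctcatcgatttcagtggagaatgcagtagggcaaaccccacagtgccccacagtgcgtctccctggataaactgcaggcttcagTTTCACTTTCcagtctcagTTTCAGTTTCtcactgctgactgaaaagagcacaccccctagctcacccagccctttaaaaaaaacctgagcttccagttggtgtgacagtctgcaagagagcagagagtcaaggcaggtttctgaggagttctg
Cxcl9, chr5:92328030-92328329, minus strand: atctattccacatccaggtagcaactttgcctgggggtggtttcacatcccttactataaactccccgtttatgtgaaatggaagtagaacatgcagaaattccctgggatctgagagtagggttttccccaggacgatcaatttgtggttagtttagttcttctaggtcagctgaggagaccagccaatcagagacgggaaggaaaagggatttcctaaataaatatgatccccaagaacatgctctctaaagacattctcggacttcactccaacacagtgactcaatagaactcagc
Irf1 and Irf8 each have 2 windows in the table, and for each the other window held no GAS or ISRE match. The printed Irf1 window held 1 GAS match, whose first base lay at -90 from the start, and the printed Irf8 window held 2, at -171 and -153. The Socs1 window held 2 overlapping ISRE matches read on the opposite strand, at -83 and -77. Gbp5 held GAS matches at -245 and -52 with an ISRE match at -165, Ifit1 held ISRE matches at -104 and -85, and the Cxcl9 window held neither. Of all 32851 windows in the table, 8.3% held a GAS match and 3.44% an ISRE match. Of 22 genes listed by symbol, 14 had a window, 3 of these held a GAS match, 4 held an ISRE match and 7 held neither. The 6 windows were picked with these matches known, and no share is compared between gene sets, because windows were present for 71.6% of the genes tested.

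The 6 libraries held 28.9 to 42.2 M reads assigned to genes, and those of all 18 held 9.77 to 49.5 M. After the authors' normalization the columns summed to 34.1 to 34.7 M with IFN-gamma and to 27.8 to 28.1 M untreated, so a value is compared within a gene and not as a share of its library. The macrophage markers listed for the label (Csf1r, Adgre1, Itgam, Cd68, Cd14, Mertk, Fcgr1, Lyz2 and Spi1 among them) were present in every library, all 10 of 10. Of 8 neutrophil markers 4 were in the table, summing to 2.25 to 4.72 normalized counts with IFN-gamma and 6.31 to 9.74 untreated. A longer list of 14 markers of neutrophils and their precursors, 8 of them in the table, summed to 3364 to 3436 with IFN-gamma and 2617 to 2738 untreated, nearly all from Csf3r, the receptor for G-CSF (3207, 3274 and 3226 with IFN-gamma, against 2394, 2414 and 2422 untreated, log2 change 0.42 ± 0.13, adjusted p = 0.0103). Csf3r was not called with quantile normalization. Of 10 lymphocyte markers 4 were in the table, summing to 29.5 to 74.3 with IFN-gamma and 190 to 333 untreated, nearly all from Cd4. Of 7 stromal markers 6 were in the table, summing to 136 to 230 with IFN-gamma and 154 to 395 untreated, and of 3 mast cell markers 1 was, at 0.982 to 2.25 with IFN-gamma and 1.95 to 5.27 untreated. Of 8 erythroid markers 2 were in the table, Alas2 with 7 reads over the 3 treated libraries and 10 over the untreated ones, and Klf1 with 8 and 21. The part of any of these cells in the results was not tested. In bulk RNA, fewer cells of a type and less RNA per cell cannot be told apart. WT IFN-gamma replicate 1 stood apart from replicates 2 and 3, with a chi-square per gene of 61.1 and 67.4 from them, against 4.72 between the other pair and 13.9 to 21.9 among untreated libraries. Pairs of WT libraries given IL-4 differed by 46.8 to 66.3, and pairs of KO libraries by 11.6 to 60.1.

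IFN-gamma changed 8922 of the 14288 genes tested, 62.4% of them. Of these, 4481 were higher (31.4% of genes tested) and 4441 were lower (31.1%), and the median log2 change over all genes tested was -0.01. An unadjusted p under 0.05 was reached by 9382 genes. Changes of at least 2-fold were found for 1921 higher genes (13.4%) and 1990 lower genes (13.9%). The 2 directions parted among the large changes. At 8-fold and above there were 461 higher and 307 lower genes, at 32-fold and above 167 higher and 52 lower genes, and at 256-fold and above 37 higher genes and 1 lower gene. Called higher genes together gained 11.2 M normalized counts, and the sum over called lower genes fell by 4.83 M. The sign was the same in all 3 animals for 8887 of the 8922 called genes. The 3 treated libraries lay above all 3 untreated ones for 35.7% of the genes tested, and below all of them for 35.4%. Protein-coding genes made up 4031 of the higher and 3961 of the lower genes, and of 1091 long noncoding RNA genes tested 247 were higher and 243 lower.

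**Figure D1:**
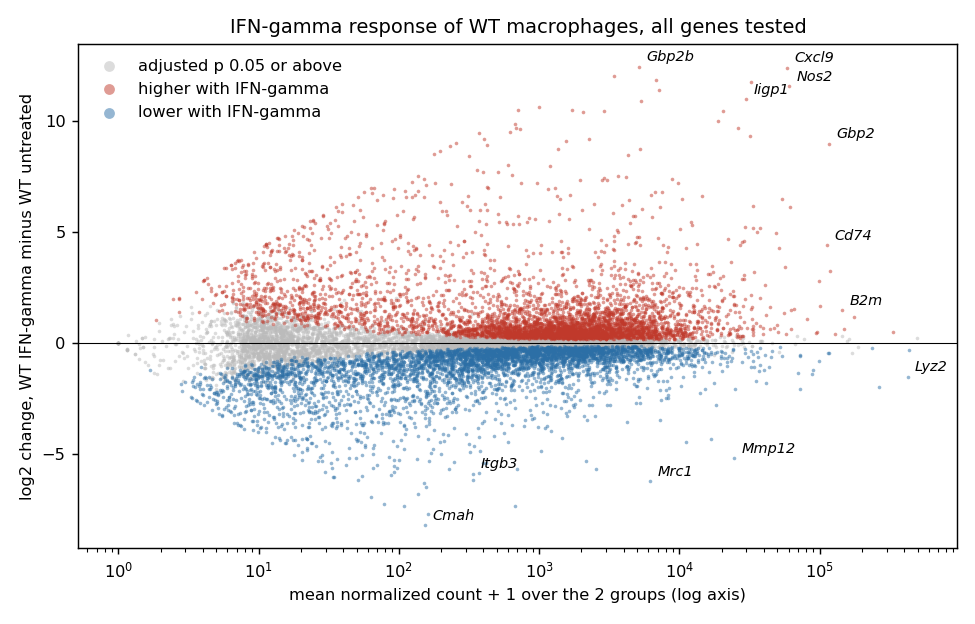
Log2 change with IFN-gamma (y axis, WT IFN-gamma minus WT untreated) against the mean normalized count + 1 over the 2 groups (x axis, log scale), 1 point for each of the 14288 genes tested. Red points were called higher, blue points were called lower and grey points were not called. The red points reach 12.42 (Gbp2b) and the blue ones -8.22 (Cmah).

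Of 15 genes for the receptor, its JAKs, STATs and phosphatases, 12 were higher and 2 lower, with a median log2 change of 0.69. Quantile normalization turned these counts to 9 higher and 5 lower. Over all genes tested 31.4% were higher and 31.1% lower with a median of -0.01, and the counts of the gene lists that follow are read against these shares. Stat2, a factor of type I interferon signalling, had 14046, 20113 and 20048 normalized counts with IFN-gamma, against 3476, 2979 and 3156 untreated. The groups did not overlap, and the log2 change was 2.48 ± 0.17, adjusted p = 8.42e-10. Stat3 changed by 1.99 ± 0.11 and Jak2 by 2.14 ± 0.11, while Jak1 moved little, by 0.19 ± 0.08, a call that was lost without any single one of the 6 libraries (adjusted p = 0.0626 to 0.107) and that turned to -0.21 with quantile normalization. There Jak1 was called lower (adjusted p = 0.0333). Ifngr1, which binds IFN-gamma, fell, with 5435, 4727 and 4652 normalized counts with IFN-gamma, against 6817, 6941 and 6812 untreated (log2 change -0.48 ± 0.08, adjusted p = 9.28e-05). Ifngr2, the signalling chain, was higher by 0.31 ± 0.06, which quantile normalization turned to -0.05 without a call. Stat5a was lower, at -0.65 ± 0.09.

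Interferon regulatory factors and their partners rose almost throughout. Of 13 tested, 11 were higher and 1, Irf4, was lower, with a median log2 change of 2.58. The Irf4 call was lost without any single one of the 6 libraries but treated replicate 3 or untreated replicate 3 (adjusted p = 0.0542 to 0.0587). Irf1, whose promoter with its GAS match is printed above, had 65763, 54001 and 53047 normalized counts with IFN-gamma, against 1621, 1596 and 1467 untreated. The lowest treated library was far above the highest untreated one (log2 change 5.20 ± 0.11, adjusted p = 3.80e-16). Irf8, a factor of myeloid development, was already abundant untreated. It had 54516, 48996 and 49307 normalized counts with IFN-gamma, against 6942, 7132 and 6871 untreated (log2 change 2.87 ± 0.07, adjusted p = 1.33e-15), with treated values that lay within a narrow range. Batf2, a factor of classical activation, changed by 6.44 ± 0.16 and Irf9, the DNA-binding partner of STAT2, by 0.78 ± 0.08. The transactivators of antigen presentation rose too. Ciita, the master regulator of MHC class II genes, had 4795, 6405 and 5876 normalized counts with IFN-gamma, against 306, 284 and 220.0 untreated (log2 change 4.40 ± 0.22, adjusted p = 9.42e-12). Nlrc5, its counterpart for MHC class I, had 7359, 10033 and 10035 normalized counts with IFN-gamma, against 1056, 1021 and 1029 untreated (log2 change 3.13 ± 0.18, adjusted p = 7.27e-11). Irf3, which is activated after translation, changed by -0.10 ± 0.09 and was not called.

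Feedback inhibitors rose in part. Of 12 tested, 7 were higher and 2 lower, with a median log2 change of 0.37. Socs1, the inhibitor of JAK kinases whose ISRE matches are shown above, had 10420.1, 10404 and 10415 normalized counts with IFN-gamma, against 20.5, 18 and 34.9 untreated. Its treated values lay close together, and its log2 change was 8.73 ± 0.20, adjusted p = 7.63e-16. Socs3, which inhibits signalling by the IL-6 receptor family, changed by 7.41 ± 0.32, Cish by 5.80 ± 0.35 and Usp18, which restrains the type I interferon receptor, by 4.53 ± 0.14. Socs5 and Socs6 were lower, at log2 changes of -0.74 and -1.01.

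**Figure D2:**
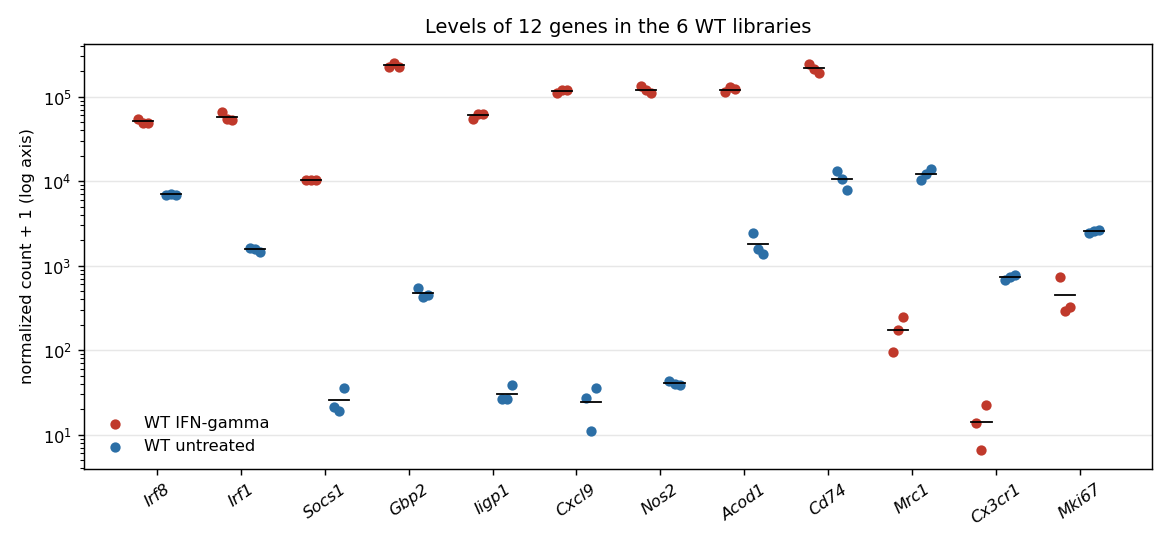
Normalized count + 1 (y axis, log scale) of 12 genes (x axis) in each of the 3 WT IFN-gamma libraries (red, left) and the 3 WT untreated libraries (blue, right). Points are libraries and black bars are means of 3. For none of the 12 genes do the groups overlap, and Mrc1, Cx3cr1 and Mki67 are the 3 that are lower with IFN-gamma.

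Guanylate-binding proteins (GBPs) had the largest median change of the gene lists. These GTPases coat and rupture the compartments of intracellular bacteria and parasites. All 11 tested were higher, with a median log2 change of 8.96 and a range of 4.43 to 12.42. Gbp2 had 227178, 248587 and 227598 normalized counts with IFN-gamma, against 537, 429 and 449 untreated (log2 change 8.96 ± 0.17, adjusted p = 2.41e-16). Per kilobase of exon, Gbp2 stood at 93185 normalized counts with IFN-gamma, rank 10 among nuclear genes, and at 188 untreated, rank 5504. Gbp4 had 60604, 68091 and 66319 normalized counts with IFN-gamma, against 15.6, 19.8 and 19.1 untreated (log2 change 11.73 ± 0.32, adjusted p = 5.42e-15). Gbp5, a promoter of inflammasome activity whose window is printed above, had 56265, 51135 and 48319 normalized counts with IFN-gamma, against 79.9, 53.2 and 59.3 untreated (log2 change 9.66 ± 0.28, adjusted p = 1.23e-14). No library of either group came near the other group for these genes. Gbp2b had 8172, 11737 and 11114 normalized counts with IFN-gamma, against 2.92, 0 and 0.659 untreated, on 4 reads over the 3 untreated libraries, and its log2 change of 12.42 ± 0.36, adjusted p = 1.29e-14 was the largest of any gene tested. Gbp11 had no read in any untreated library and a mean of 1410.5 ± 84.5 with IFN-gamma, so that it was at least 1711-fold higher, taking 3 reads over the untreated group as the floor. GBP genes are near copies of each other, and the sources used here do not say how reads that match several were shared out.

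Immunity-related GTPases (IRGs) act on the same pathogen compartments. Of 12 tested, 10 were higher and none lower, with a median log2 change of 4.22. Iigp1 had 54157, 63066 and 62976 normalized counts with IFN-gamma, against 25.3, 25.3 and 38.2 untreated (log2 change 10.96 ± 0.33, adjusted p = 1.71e-14). Tgtp1 had 3342, 4475 and 4497 normalized counts with IFN-gamma, against 4.87, 3.61 and 0 untreated (log2 change 10.40 ± 0.60, adjusted p = 8.03e-11). Both were near 0 untreated, whereas Irgm1 and Irgm2, regulators of the other IRGs, and Igtp had a basal level. Irgm1 had 4014, 5426 and 5269.8 normalized counts with IFN-gamma, against 339, 309 and 342 untreated (log2 change 3.88 ± 0.15, adjusted p = 5.73e-13), Irgm2 changed by 3.64 ± 0.15 and Igtp by 5.29 ± 0.13. The 2 that did not pass were the gene models 9930111J21Rik1 (log2 change 0.98 ± 0.43, adjusted p = 0.0531) and 9930111J21Rik2 (log2 change 0.46 ± 0.23, adjusted p = 0.0924), and both were called with the code as a replicate block (adjusted p = 0.028 and 0.0235).

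Antigen presentation on MHC class I rose on top of a high basal level. Of 21 genes for class I chains and peptide loading, 20 were higher and 1 (Canx, a chaperone, at -0.23) was lower, with a median log2 change of 1.92. B2m, the light chain of every class I molecule, had 217304, 213689.7 and 207086 normalized counts with IFN-gamma, against 74506, 76649 and 82454 untreated (log2 change 1.45 ± 0.10, adjusted p = 5.69e-10). H2-K1, a classical class I heavy chain, had 173405, 146783 and 141202 normalized counts with IFN-gamma, against 52378, 48227 and 46158 untreated (log2 change 1.65 ± 0.11, adjusted p = 4.39e-10). Tap1, a subunit of the peptide transporter, had 32889, 30634 and 30604 normalized counts with IFN-gamma, against 3066, 2776 and 2717 untreated (log2 change 3.46 ± 0.16, adjusted p = 3.38e-12). The nonclassical genes H2-Q6 and H2-Q7 changed by 5.72 ± 0.23 and 5.08 ± 0.23, although class I genes share much sequence. All 5 genes of the immunoproteasome and its activator PA28, which favour peptides that fit class I, were higher, with a median of 2.28. Psmb8 had 16613, 14762 and 13234 normalized counts with IFN-gamma, against 3219.9, 3077 and 2886 untreated (log2 change 2.28 ± 0.11, adjusted p = 6.37e-12), Psmb9 changed by 2.65 ± 0.11, Psmb10 by 2.09 ± 0.12 and Psme1 by 2.06 ± 0.09. The standard proteasome moved with it, as 29 of 31 genes were higher and none lower, with a median of 1.02. Psma5, of the proteasome's core, had 4765, 4384 and 4276 normalized counts with IFN-gamma, against 1286, 1272 and 1166 untreated (log2 change 1.85 ± 0.10, adjusted p = 3.16e-11).

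MHC class II, which shows peptides to CD4 T cells, had a larger median change than class I. Of 12 genes tested, 11 were higher and none lower, with a median log2 change of 3.87. Cd74, the invariant chain, had 243462, 213171 and 193039.7 normalized counts with IFN-gamma, against 13158, 10638 and 7977 untreated (log2 change 4.38 ± 0.19, adjusted p = 1.49e-12). Per kilobase of exon it stood at rank 7 among nuclear genes with IFN-gamma and at rank 129 untreated. H2-Ab1, a class II chain, had 68403, 48841 and 43209 normalized counts with IFN-gamma, against 2950.0, 2228 and 1695 untreated (log2 change 4.55 ± 0.22, adjusted p = 8.77e-12). Replicate 1 was the highest library of each group for both genes. H2-DMa, which helps load peptides, changed by 3.36 ± 0.14 and H2-Oa, which restrains that loading, by 5.92 ± 0.37.

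Molecules that stimulate T cells and molecules that restrain them rose together. Of 17 tested, 14 were higher and 2 lower, with a median log2 change of 2.23. Cd40, which T cells engage through CD40 ligand, had 9161, 11648 and 11180.0 normalized counts with IFN-gamma, against 167, 165 and 153 untreated (log2 change 6.03 ± 0.15, adjusted p = 2.39e-15). Cd86, a ligand of CD28, had 13628, 13889 and 13374 normalized counts with IFN-gamma, against 539, 482 and 553 untreated (log2 change 4.70 ± 0.34, adjusted p = 1.65e-09). Cd274, which encodes the inhibitory ligand PD-L1, had 74626, 60812 and 59629 normalized counts with IFN-gamma, against 1921, 1793 and 1687 untreated (log2 change 5.17 ± 0.19, adjusted p = 1.97e-13), so both kinds moved the same way. Tnfsf10, the death ligand TRAIL, changed by 6.63 ± 0.45. Vsir, an inhibitory ligand, fell by 0.42 on the log2 scale (adjusted p = 5.87e-05) and Cd48 by 1.04 (adjusted p = 2.46e-05).

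Some genes used as markers of dendritic cells appeared with IFN-gamma. Of 10 tested, 6 were higher and 2 lower. Xcr1, the chemokine receptor of cross-presenting dendritic cells, had 509, 896 and 959 normalized counts with IFN-gamma, against 1.95, 3.61 and 2.63 untreated (log2 change 7.69 ± 0.50, adjusted p = 3.18e-10). Clec9a, their receptor for dead cells, had 749, 1522 and 1527 normalized counts with IFN-gamma, against 4.87, 9.92 and 3.29 untreated (log2 change 7.53 ± 0.55, adjusted p = 1.91e-09). Zbtb46, the factor held to define classical dendritic cells, had 14.7, 7.89 and 1.18 with IFN-gamma and 0.974, 0.902 and 3.95 untreated, the treated group spreading more than the groups differ. Its call (adjusted p = 0.0499) was lost with the code as a replicate block (adjusted p = 0.0546), and it was lost without any single one of the 6 libraries but treated replicate 3 or untreated replicate 3 (adjusted p = 0.143 to 0.282). Batf3, a factor those cells need, had 211, 180.4 and 183 normalized counts with IFN-gamma, against 77, 75.8 and 75.7 untreated (log2 change 1.31 ± 0.19, adjusted p = 8.18e-06), and Cd24a fell by 4.40 on the log2 scale. Summed over the 4 of 6 listed dendritic cell markers in the table, the level was 1298 to 2495 with IFN-gamma and 11.2 to 17.1 untreated. The treated sum came nearly all from Xcr1 and Clec9a, and the listed Flt3 and Siglech were not in the table. Which cells held these transcripts was not tested.

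Chemokines divided in direction. Of 10 CXC chemokines, 4 were higher and 3 lower, with the 3 ligands of CXCR3, the receptor on activated T cells, at the top. Cxcl9 had 111523, 118596 and 121122 normalized counts with IFN-gamma, against 26.3, 9.92 and 34.9 untreated (log2 change 12.37 ± 0.75, adjusted p = 1.34e-10), and it rose without a GAS or ISRE match of these letters in its printed window. Cxcl10 had 53919, 71095 and 67132 normalized counts with IFN-gamma, against 124, 78.5 and 98.1 untreated (log2 change 9.32 ± 0.29, adjusted p = 2.15e-14). Cxcl11 had 5974, 7309.6 and 7165 normalized counts with IFN-gamma, against 0.974, 0 and 1.32 untreated, on 3 reads untreated, which gave a ratio of 8246 with a 95% counting interval of 2821 to 39987. Among attractants of neutrophils, Cxcl3 was lower at -1.89 ± 0.40 and Cxcl1 at -0.82 ± 0.33, the call of Cxcl1 being lost without any single one of the 6 libraries but treated replicate 1 (adjusted p = 0.0675 to 0.159). Cxcl2, another of these attractants, was not called (log2 change 0.003, adjusted p = 0.994). Of 14 CC and related chemokines, 6 were higher and 5 lower. Ccl5 had 76519, 63280.0 and 57348 normalized counts with IFN-gamma, against 903, 930.1 and 933 untreated (log2 change 6.14 ± 0.18, adjusted p = 1.29e-14). The monocyte attractants Ccl2 and Ccl7 rose in all libraries but least in replicate 1. Ccl7 had 1015, 5854 and 5177 normalized counts with IFN-gamma, against 44.8, 59.5 and 42.8 untreated (log2 change 5.98 ± 0.46, adjusted p = 3.08e-09), and Ccl2 changed by 4.78 ± 0.35. Ccl9 had 779, 1080.0 and 1014 normalized counts with IFN-gamma, against 21525, 22281 and 20462 untreated (log2 change -4.50 ± 0.11, adjusted p = 1.17e-15), and Ccl6 fell by 2.73 on the log2 scale.

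Receptors for such signals divided too, with 7 of 14 higher and 6 lower. Cx3cr1, the receptor for fractalkine, had 12.8, 5.64 and 21.2 normalized counts with IFN-gamma, against 680.0, 742 and 786 untreated (log2 change -5.86 ± 0.36, adjusted p = 1.71e-10). Cxcr4, which holds cells in the marrow, had 826, 627 and 547 normalized counts with IFN-gamma, against 8065, 7762 and 7378 untreated (log2 change -3.56 ± 0.12, adjusted p = 4.51e-14). Ccr7, which leads cells to lymph nodes, was higher and almost without reads untreated, at 218, 47.3 and 43.6 with IFN-gamma and 0.974, 0 and 0 untreated. Its 1 untreated read gave a ratio of 399 with a counting interval of 71.1 to 15827 (adjusted p = 3.22e-08). Ccr7 was higher in replicate 1 than in the other treated libraries. Ccr2, the receptor for CCL2, was not called (adjusted p = 0.0673), but it was called with the code as a replicate block (adjusted p = 0.0218).

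Cytokine genes rose as a group, 14 of 17 higher and 1 lower, with a median log2 change of 2.81. Il1b had 42080.0, 14747 and 14349.7 normalized counts with IFN-gamma, against 805, 395 and 332 untreated (log2 change 5.45 ± 0.58, adjusted p = 2.65e-07), and replicate 1 was the highest library in both groups. Tnf had 5361, 6469.7 and 6908 normalized counts with IFN-gamma, against 521, 567 and 592 untreated (log2 change 3.47 ± 0.13, adjusted p = 2.91e-13). Il6 had 360.4, 176 and 200.5 normalized counts with IFN-gamma, against 6.82, 2.71 and 3.29 untreated (log2 change 5.55 ± 0.69, adjusted p = 1.67e-06), a low level even when treated. Il27 and Il15, which act on T and NK cells, changed by 4.16 ± 0.23 and 2.81 ± 0.09. Antagonists rose with the cytokines. Il18bp, the decoy for IL-18, changed by 5.69 ± 0.20 and Il1rn, the IL-1 receptor antagonist, by 3.01 ± 0.26. Il12b, a subunit of IL-12, had 7.86, 12.4 and 4.72 normalized counts with IFN-gamma, against 1.95, 0.902 and 0 untreated, on 3 untreated reads (ratio 10.2, counting interval 3.07 to 52.9, adjusted p = 0.00351). Il10, an inhibitory cytokine, was not called (log2 change -0.23), and Tgfb1, which restrains inflammation, fell by 0.54 (adjusted p = 4.17e-05). Ifnb1, the type I interferon beta, had 28.5, 59.7 and 51.9 with IFN-gamma and no read in an untreated library, and was at least 55.7-fold higher (adjusted p = 1.67e-07).

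Among nitric oxide and arginine genes, Nos2, the classical mark, rose, and Arg1, the alternative one, was not called. Of 15 tested, 7 were higher and 4 lower, with a median of 0.09. Nos2, inducible nitric oxide synthase, had 132459, 119531 and 111980.3 normalized counts with IFN-gamma, against 41.9, 38.8 and 38.2 untreated (log2 change 11.54 ± 0.25, adjusted p = 4.74e-16). Arg1, the arginase of alternative activation that competes for the same substrate, had 0.982, 6.76 and 5.9 normalized counts with IFN-gamma, against 4.87, 4.51 and 2.63 untreated (log2 change -0.05 ± 0.48, adjusted p = 0.936), with groups that overlapped. Arg2, the other arginase gene, was higher (log2 change 2.16, adjusted p = 0.00214). Ass1, which rebuilds arginine from citrulline, had 6010.4, 4870.0 and 4622 normalized counts with IFN-gamma, against 475, 253 and 211 untreated (log2 change 4.12 ± 0.26, adjusted p = 2.13e-10), and the transporter Slc7a2 changed by 2.99 ± 0.32. With IL-4 the log2 change of Slc7a2 was 6.41. Gch1, which makes the cofactor of nitric oxide synthase, changed by 1.12 ± 0.10, while Spr and Pts, later in the same cofactor pathway, were lower, at -0.58 and -0.55 on the log2 scale.

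Most tryptophan genes and Acod1, the gene of itaconate synthesis, rose, to different levels. Of 8 tryptophan genes, 5 were higher and 1, Kmo, lower, with a median of 3.49. The Kmo call was lost without any single one of the 6 libraries but treated replicate 2 (adjusted p = 0.0553 to 0.0985). Ido1, the first enzyme of the kynurenine path, had a single untreated read, with 102, 92.4 and 80.2 normalized counts with IFN-gamma, against 0.974, 0 and 0 untreated (ratio 337, counting interval 59.9 to 13364, adjusted p = 3.43e-09). Kynu changed by 6.99 ± 0.39 and Wars, the tryptophanyl-tRNA synthetase, by 3.04 ± 0.10. Acod1, which makes itaconate from the TCA cycle intermediate aconitate, had 112986, 128706 and 122396 normalized counts with IFN-gamma, against 2439, 1596 and 1376 untreated (log2 change 6.11 ± 0.21, adjusted p = 6.82e-14). The list of the TCA cycle, Acod1 included, held changes in both directions, 11 of 25 higher and 7 lower with a median of 0.05, and quantile normalization turned the balance to 7 higher and 12 lower. Idh1 and Idh2, isocitrate dehydrogenases, were the lowest, with 1161, 1384 and 1288 normalized counts with IFN-gamma, against 8944, 8251 and 8226 untreated for Idh1 (log2 change -2.73 ± 0.11, adjusted p = 6.74e-13) and a log2 change of -1.86 for Idh2 (adjusted p = 1.23e-09).

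Glycolysis genes rose for the most part, among them Slc2a1 for the uptake of glucose and Slc16a3 for the export of lactate. Of 27 genes, 22 were higher and 3 lower, with a median log2 change of 1.45. Slc2a1, the glucose transporter GLUT1, had 9667, 9966 and 9427 normalized counts with IFN-gamma, against 1308, 1346 and 1133 untreated (log2 change 2.94 ± 0.09, adjusted p = 2.49e-14). Slc2a3, also a glucose transporter gene, was lower (log2 change -1.02, adjusted p = 1.09e-05). Pfkfb3, which makes the activator of phosphofructokinase, changed by 3.06 ± 0.11 and Hk2 by 2.07 ± 0.09. Ldha, the enzyme the series deletes, had 36752, 38896 and 36197 normalized counts with IFN-gamma, against 12204, 11939 and 10712 untreated (log2 change 1.68 ± 0.08, adjusted p = 2.80e-12). Ldhb, the other chain of lactate dehydrogenase, fell by 1.63 (adjusted p = 2.98e-07), and Slc16a3, the lactate exporter MCT4, had 19256, 15991 and 15014 normalized counts with IFN-gamma, against 2062, 1600.3 and 1533 untreated (log2 change 3.28 ± 0.19, adjusted p = 7.14e-11). Hif1a, the hypoxia-inducible factor, and its targets outside glycolysis rose with them, 14 of 18 higher and 3 lower with a median of 1.37. Hif1a had 25744, 21815 and 21853 normalized counts with IFN-gamma, against 3468, 3012 and 3377 untreated (log2 change 2.81 ± 0.16, adjusted p = 6.57e-11). Epas1, which encodes the related factor HIF-2 alpha, went the other way, with 13.7, 12.4 and 15.3 normalized counts with IFN-gamma, against 231, 327 and 358 untreated (log2 change -4.35 ± 0.27, adjusted p = 2.33e-10).

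The tested genes of the respiratory chain divided by the genome that encodes them. Of 55 subunit genes in the nucleus, 27 were higher and 1 lower, with a median of 0.25, and quantile normalization left 15 higher and 5 lower. The list of the mitochondrial genome held 13 genes, of which 8 had values and 7 were tested. All 7 tested genes were lower, with a median of -1.03. mt-Nd1, of complex I, had 22716, 30426 and 29461 normalized counts with IFN-gamma, against 59906, 57922 and 59237 untreated (log2 change -1.11 ± 0.13, adjusted p = 6.21e-07). mt-Co1, of complex IV, moved least, by -0.25 ± 0.10, a call that was lost without any single one of the 6 libraries (adjusted p = 0.062 to 0.103). The mitochondrial share of each library was 0.978, 1.18 and 1.13% with IFN-gamma, against 1.95, 2.03 and 2.11% untreated. The groups did not overlap, and the exact permutation p (two-sided) was 0.1, which is the smallest that 3 against 3 can give. The treated columns summed to more normalized counts, so a fall in the share is not a fall in counts of the same size. The 8 listed mitochondrial genes with values summed to 282490 to 347430 normalized counts with IFN-gamma and 476020 to 504160 untreated. The libraries were made from poly(A) RNA, so a share of mitochondrial reads is a share of what that selection keeps. Mitochondrial genes without values add nothing to that share.

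Antiviral genes linked to type I interferon rose nearly without exception. Of 43 tested, 41 were higher and none lower, with a median log2 change of 2.34, and the 2 not called were Ifitm1 (log2 change 0.48) and Ifitm2 (0.02). Ifit1, whose promoter with 2 ISRE matches is printed above, had 10931, 18777 and 16734 normalized counts with IFN-gamma, against 884, 812 and 1027 untreated (log2 change 4.06 ± 0.24, adjusted p = 1.18e-10). Rsad2, viperin, had 51316, 86599.8 and 81453 normalized counts with IFN-gamma, against 2203, 1678 and 2036 untreated (log2 change 5.18 ± 0.29, adjusted p = 4.66e-11). Mx1 had 20139, 33105 and 32711 normalized counts with IFN-gamma, against 363, 229 and 287 untreated (log2 change 6.60 ± 0.34, adjusted p = 1.44e-11). In all 3 genes replicate 1 was the lowest of the treated libraries and still far above every untreated one. Isg15, a ubiquitin-like modifier, had 20859, 19724 and 18617 normalized counts with IFN-gamma, against 608, 524 and 597 untreated (log2 change 5.10 ± 0.18, adjusted p = 1.25e-13). Oasl1 changed by 7.17 ± 0.25 and Zbp1, a sensor of left-handed nucleic acid, by 4.74 ± 0.23.

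Genes for cell death and for sensing microbes moved mainly up. Of 23 genes of inflammasomes and cell death, 18 were higher and 1 lower, with a median of 1.28. Mlkl, the executor of necroptosis, had 4027, 5066 and 5059.9 normalized counts with IFN-gamma, against 269, 285 and 269 untreated (log2 change 4.09 ± 0.12, adjusted p = 2.14e-14). Casp4, the mouse caspase-11 gene that senses lipopolysaccharide in the cytosol, changed by 2.69 ± 0.12, Casp1 by 1.79 ± 0.09 and Gsdmd, the pore-forming target of these caspases, by 1.28 ± 0.09, while Pycard, the adaptor, was not called. Toll-like receptors and adaptors divided, 10 of 18 higher and 5 lower with a median of 0.59. Tlr9, the sensor of microbial DNA, had 8507, 13778 and 14859 normalized counts with IFN-gamma, against 2329, 2547 and 2927 untreated (log2 change 2.22 ± 0.25, adjusted p = 5.98e-07). Tlr7, the sensor of single-stranded RNA in the same compartment, had 2230.3, 4223 and 4185 normalized counts with IFN-gamma, against 8398, 9543 and 10882 untreated (log2 change -1.49 ± 0.18, adjusted p = 1.19e-06). All 14 genes of NF-kB subunits and inhibitors were higher, with a median of 1.32. Nfkbie, an inhibitor, changed by 3.54 ± 0.11, Nfkbia by 1.66 ± 0.13 and Rela, the main activating subunit, by 0.49 ± 0.07. Of 24 immediate early genes, 18 were higher and 2 lower, with a median of 1.55. Nr4a3 had 157, 86.8 and 81.4 normalized counts with IFN-gamma, against 1.95, 0.902 and 0.659 untreated (log2 change 5.64 ± 0.44, adjusted p = 4.05e-09) and Junb changed by 2.14 ± 0.18.

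Activating Fc receptors and the complement component C3 rose, while the inhibitory Fc receptor fell. Of 6 Fc receptor genes, 5 were higher. Fcgr4, a receptor for IgG2 antibodies, had 20809.7, 28119 and 27664 normalized counts with IFN-gamma, against 1289.9, 1064 and 1094 untreated (log2 change 4.46 ± 0.14, adjusted p = 2.15e-14). Fcgr1, the high-affinity receptor, had 27496, 32073 and 30988 normalized counts with IFN-gamma, against 4983, 5168 and 5335 untreated (log2 change 2.55 ± 0.16, adjusted p = 2.13e-10). Fcgr2b, the inhibitory receptor and the 1 that fell, had 968, 1274 and 1391 normalized counts with IFN-gamma, against 2952, 2528 and 2352 untreated (log2 change -1.12 ± 0.13, adjusted p = 8.76e-07). Of 19 complement genes, 10 were higher and 6 lower, with a median of 0.68. C3, the central component, had 242107, 198425 and 200434 normalized counts with IFN-gamma, against 27099.6, 20505 and 21949 untreated (log2 change 3.21 ± 0.20, adjusted p = 2.14e-10). C4b changed by 6.96 ± 0.70, and Cfb, of the alternative pathway, by 5.09 ± 0.51. C5ar1, a receptor for C5a, fell by 1.53 and Itgax, a chain of a complement receptor, fell by 1.50 on the log2 scale. Of 7 genes of the phagocyte oxidase, 5 were higher and 1 lower, which quantile normalization turned to 1 higher and 2 lower.

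**Figure D3:**
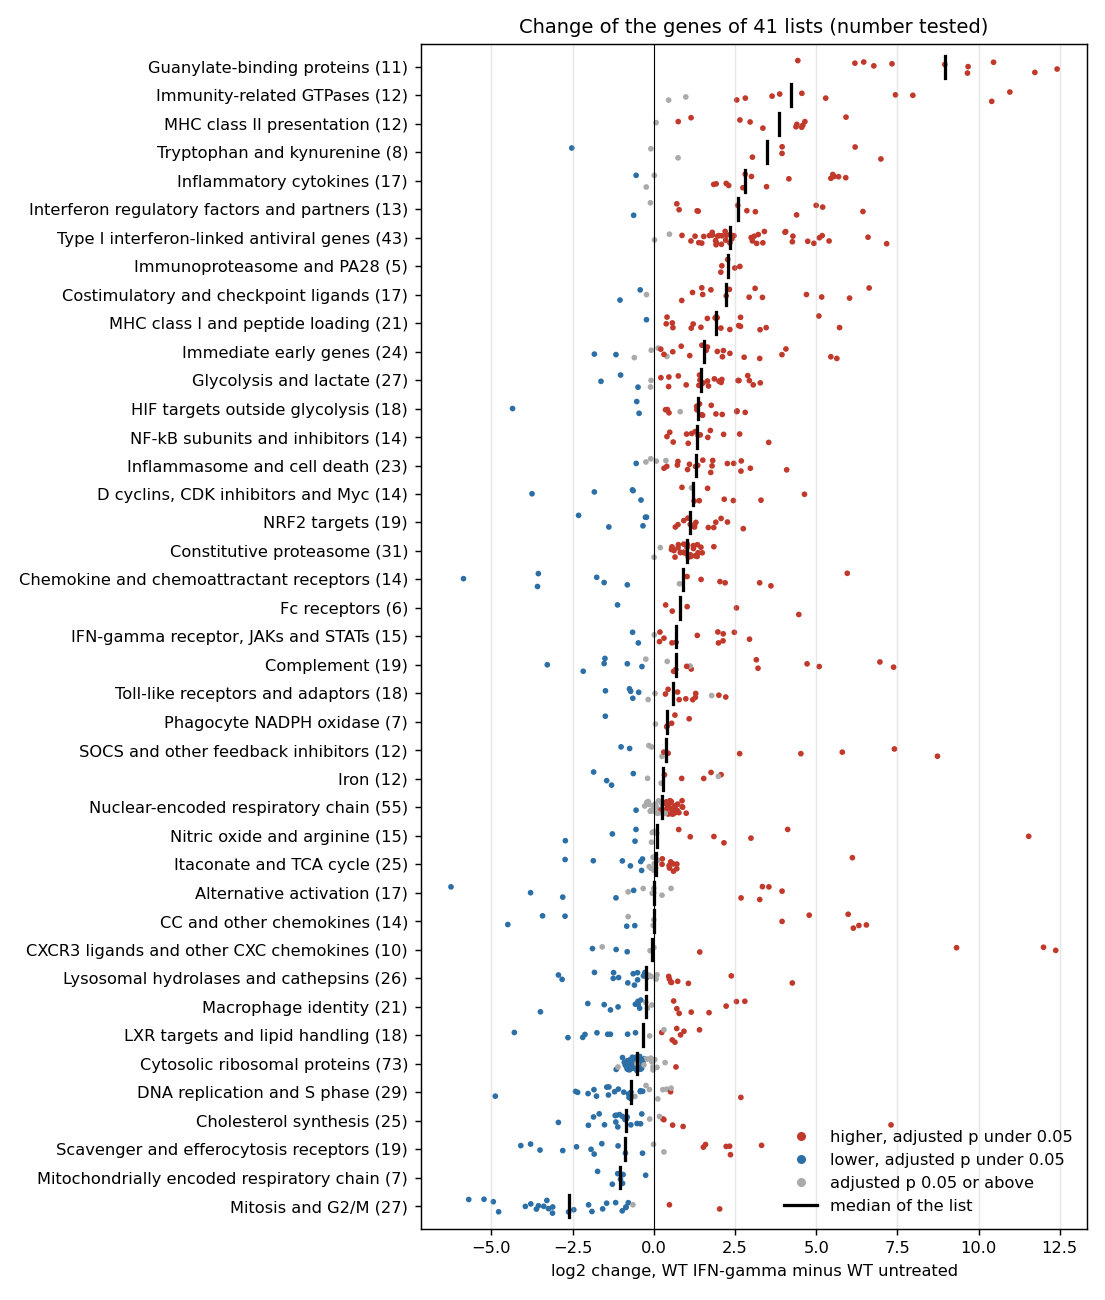
Log2 change with IFN-gamma (x axis, WT IFN-gamma minus WT untreated) of every tested gene of 41 lists (rows, with the number tested), ordered by the median, which is the black bar. Red points were called higher, blue points lower, and grey points were not called. The guanylate-binding proteins are at the top with a median of 8.96, and the mitosis and G2/M genes are at the bottom with -2.62.

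Among the genes that fell, receptors for clearing debris were prominent. Of 19 scavenger and efferocytosis receptors, 11 were lower and 6 higher, with a median log2 change of -0.87. Mrc1, the mannose receptor, had 94.3, 171 and 249 normalized counts with IFN-gamma, against 10316, 12331 and 14060.3 untreated (log2 change -6.24 ± 0.25, adjusted p = 5.95e-13). Cd163, the haemoglobin scavenger, had 4.91, 19.2 and 14.2 normalized counts with IFN-gamma, against 187, 236 and 201 untreated (log2 change -4.09 ± 0.39, adjusted p = 5.77e-08). Stab1 had 2163, 2895 and 3038 normalized counts with IFN-gamma, against 12048, 13971 and 15955 untreated (log2 change -2.38 ± 0.14, adjusted p = 1.53e-10). Not all went down. Mertk, a receptor for apoptotic cells, had 12097, 12135 and 12487 normalized counts with IFN-gamma, against 2578, 2607 and 2654 untreated (log2 change 2.23 ± 0.15, adjusted p = 5.57e-10), Axl of the same family changed by 1.59 ± 0.19, and Gas6, a ligand of both, fell by 3.50 on the log2 scale. The list of alternative activation did not fall as one, with 5 of 17 higher and 5 lower. Its median of 0.00 was the value of Retnla and Ccl17, which were at 0 in both groups. The higher members of this list were Ccl22, Tgm2 (3.54 ± 0.21), Pdcd1lg2, Klf4 and Il4ra, the IL-4 receptor chain (2.69 ± 0.09), while Retnla had no read in any of the 6 libraries and Chil3 had 4 reads with IFN-gamma and 1 untreated.

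Macrophage identity genes divided, 8 of 21 higher and 10 lower, and quantile normalization gave 5 higher and 13 lower. Csf1r, the receptor for the factor the cells were grown in, had 55770.5, 59182 and 60151 normalized counts with IFN-gamma, against 90092, 83118 and 86351 untreated (log2 change -0.57 ± 0.09, adjusted p = 3.57e-05). Adgre1, which encodes a surface marker of mouse macrophages, had 54708, 68122 and 73766 normalized counts with IFN-gamma, against 59495, 66435 and 78342 untreated (log2 change -0.06 ± 0.13, adjusted p = 0.721), with groups that overlapped. Lyz2, lysozyme, had 232226, 223896 and 200017 normalized counts with IFN-gamma, against 700319, 622865 and 571538 untreated (log2 change -1.53 ± 0.10, adjusted p = 5.43e-10), and its mean fell by 412861 normalized counts, the largest loss of any gene. Trem2, a lipid receptor of tissue macrophages, had 405, 318 and 358 normalized counts with IFN-gamma, against 3835, 4347 and 3956 untreated (log2 change -3.49 ± 0.15, adjusted p = 1.25e-12). Spi1, the lineage factor PU.1, was higher, by 0.71 ± 0.09, and Cebpa, a factor of the same lineage, fell by 2.03 (adjusted p = 3.14e-08).

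Sterol synthesis genes fell for the most part, and genes of lipid handling divided. Of 25 genes of cholesterol synthesis and its control, 18 were lower and 5 higher, with a median of -0.84. Cyp51, which removes a methyl group from lanosterol, averaged 611 ± 23.1 normalized counts with IFN-gamma and 2472 ± 86.9 untreated (SD, n = 3 each), and its log2 change by limma was -2.01 ± 0.17, adjusted p = 8.45e-09. Idi1, of the isoprenoid part of the path, fell by 1.86 on the log2 scale (adjusted p = 2.21e-06). Ch25h, which makes the sterol-suppressing oxysterol 25-hydroxycholesterol, had 2983, 7500.1 and 7803 normalized counts with IFN-gamma, against 35.1, 27.1 and 42.8 untreated (log2 change 7.30 ± 0.47, adjusted p = 3.43e-10). Of 18 genes of lipid handling, 9 were lower and 7 higher. Fabp4, a fatty acid carrier, had 248, 125 and 87.3 normalized counts with IFN-gamma, against 2973, 2959 and 2378 untreated (log2 change -4.29 ± 0.26, adjusted p = 1.75e-10). Fasn, fatty acid synthase, had 335, 484 and 489 normalized counts with IFN-gamma, against 2551, 2707 and 2821 untreated (log2 change -2.64 ± 0.18, adjusted p = 5.12e-10), and Pparg, the lipid-sensing nuclear receptor, fell by 1.75 (adjusted p = 5.46e-08). Lpl, lipoprotein lipase, had 38386, 51919 and 53847 normalized counts with IFN-gamma, against 111722, 137292 and 134087 untreated (log2 change -1.42 ± 0.18, adjusted p = 2.14e-06). Apoe had 50353, 83495 and 82432 normalized counts with IFN-gamma, against 87229, 139377 and 152583 untreated (log2 change -0.81 ± 0.34, adjusted p = 0.0498), each treated library below the untreated library of its own animal although the groups lay close, and the call was lost without any single one of the 6 libraries but untreated replicate 1 (adjusted p = 0.0503 to 0.205). With the code as a replicate block, Apoe was called (adjusted p = 0.000111, and 0.000312 in the 6 WT libraries alone).

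Of 26 lysosomal genes, 14 were lower and 8 higher, with a median of -0.24. Ctsd, cathepsin D, had 57162, 53080.0 and 48654 normalized counts with IFN-gamma, against 127183, 130514 and 119652 untreated (log2 change -1.25 ± 0.12, adjusted p = 7.10e-08). Ctsk, the collagen-degrading cathepsin of osteoclasts, had 53, 56.4 and 38.9 normalized counts with IFN-gamma, against 411, 424 and 316 untreated (log2 change -2.94 ± 0.20, adjusted p = 4.88e-10). Ctsc, which activates granule proteases, went the other way, with 79947, 107336 and 103777 normalized counts with IFN-gamma, against 4571, 4985 and 5500.2 untreated (log2 change 4.26 ± 0.12, adjusted p = 6.30e-15). Ctsb, among the most abundant transcripts, had 387423, 395809 and 383015 normalized counts with IFN-gamma, against 497954, 494837 and 463732 untreated (log2 change -0.32 ± 0.13, adjusted p = 0.0356), a call that was lost without any single one of the 6 libraries but untreated replicate 3 (adjusted p = 0.0674 to 0.0912). Quantile normalization took its log2 change to 0 without a call, and with the 6 WT libraries alone and the replicate block it was not called (adjusted p = 0.0546). Other large losses in normalized counts were those of Gpnmb, Spp1, Sirpa and Mmp12. Gpnmb, a lysosomal glycoprotein, had 124553, 107843 and 91177 normalized counts with IFN-gamma, against 452051, 436214 and 387544 untreated (log2 change -1.99 ± 0.16, adjusted p = 4.59e-09). Mmp12, macrophage elastase, had 1047, 1706 and 1203 normalized counts with IFN-gamma, against 49609.5, 51084 and 42684 untreated (log2 change -5.21 ± 0.21, adjusted p = 7.00e-13).

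Targets of NRF2, the factor of oxidative stress defence, rose for the most part, and iron genes divided. Of 19 NRF2 targets, 14 were higher and 5 lower, with a median of 1.12. Prdx1, a peroxidase, had 189618, 170382 and 155314 normalized counts with IFN-gamma, against 25288, 25899.9 and 24908 untreated (log2 change 2.75 ± 0.11, adjusted p = 9.62e-13). Hmox1, which breaks down haem, had 16133, 14555 and 12982 normalized counts with IFN-gamma, against 3576, 3436 and 3339.9 untreated (log2 change 2.07 ± 0.10, adjusted p = 1.22e-11). Of 12 iron genes, 5 were higher and 4 lower. Slc11a1, which pumps metal ions out of the phagosome, changed by 1.76 ± 0.08, the exporter Slc40a1 fell by 1.45 and the transferrin receptor gene Tfrc by 1.30 on the log2 scale.

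Cell-cycle genes fell, mitosis most. Of 27 genes of mitosis and G2/M, 24 were lower and 2 higher, with a median of -2.62. Mki67, the proliferation marker, had 739, 293 and 324 normalized counts with IFN-gamma, against 2448, 2572 and 2623 untreated (log2 change -2.62 ± 0.29, adjusted p = 4.06e-07). Ccna2, cyclin A2, had 20.6, 22.5 and 15.3 normalized counts with IFN-gamma, against 541, 605 and 734 untreated (log2 change -4.94 ± 0.26, adjusted p = 1.92e-11). Cenpf had 5.89, 7.89 and 9.43 normalized counts with IFN-gamma, against 467, 401 and 475 untreated (log2 change -5.70 ± 0.36, adjusted p = 2.90e-10). The exceptions were Tpx2, a spindle factor that rose by 2.03 ± 0.09, and Cks2, whose call was lost without any single one of the 6 libraries but treated replicate 3 (adjusted p = 0.051 to 0.225). Of 29 genes of DNA replication, 20 were lower and 2 higher, with a median of -0.71. Rrm2, of ribonucleotide reductase, had 23.6, 21.4 and 25.9 normalized counts with IFN-gamma, against 578, 791 and 825 untreated (log2 change -4.88 ± 0.21, adjusted p = 1.69e-12). Mcm2, of the replicative helicase, fell by 1.77 (adjusted p = 2.29e-08). Cyclin D genes rose in the same libraries. Ccnd1 had 8063, 12115 and 12373 normalized counts with IFN-gamma, against 2138, 2457 and 2532 untreated (log2 change 2.17 ± 0.16, adjusted p = 2.45e-09), and Ccnd2 changed by 4.64 ± 0.27. Cdkn1a, the CDK inhibitor p21, had 30672, 16364 and 15924 normalized counts with IFN-gamma, against 3979.8, 3721 and 3306 untreated (log2 change 2.45 ± 0.19, adjusted p = 3.07e-09), while Cdkn1c fell by 3.75 and Myc by 1.83 on the log2 scale.

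Cytosolic ribosomal protein genes fell by small amounts. Of 73 tested, 58 were lower and 1, Rps24, was higher (a call lost with quantile normalization), with a median of -0.53, against -0.01 over all genes tested. Rpl10a had 1153, 1018 and 1025 normalized counts with IFN-gamma, against 2319, 2603 and 2210.3 untreated (log2 change -1.16 ± 0.15, adjusted p = 3.32e-06), the lowest of the called members. Rps24 had 17607, 16359.7 and 16373 normalized counts with IFN-gamma, against 9937, 10743 and 10689 untreated (log2 change 0.68 ± 0.13, adjusted p = 0.000239). With quantile normalization 0 were higher and 65 lower. Many of these genes have processed copies elsewhere in the genome, and the sources used here do not say how their shared reads were counted.

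The largest rises outside the groups above were found among genes of varied kinds. Serpina3f and Serpina3g, protease inhibitors of 1 gene cluster with similar sequences, changed by 11.82 ± 0.49 and 11.39 ± 0.24. Serpina3g had 9895, 16961 and 16360.2 normalized counts with IFN-gamma, against 3.9, 3.61 and 5.27 untreated. Dnase1l3, a nuclease for DNA in vesicles and chromatin, had 9989, 11349.9 and 10564 normalized counts with IFN-gamma, against 4.87, 4.51 and 4.61 untreated (log2 change 10.87 ± 0.46, adjusted p = 1.33e-12). Ly6a, which encodes the surface protein Sca-1, had 43986, 41207 and 37209.6 normalized counts with IFN-gamma, against 63.3, 24.4 and 14.5 untreated (log2 change 10.44 ± 0.63, adjusted p = 1.44e-10). Cnn3, a calponin, had 6356, 5615 and 5335 normalized counts with IFN-gamma, against 0.974, 6.31 and 3.95 untreated (log2 change 10.44 ± 0.76, adjusted p = 1.73e-09). Bcl2l14 changed by 10.49 ± 0.61, and Ptgs2, the prostaglandin-making enzyme COX-2, had 59410.2, 27179.8 and 26697 normalized counts with IFN-gamma, against 40.9, 29.8 and 32.3 untreated (log2 change 9.97 ± 0.47, adjusted p = 4.36e-12). Each of these genes was close to absent untreated and well covered with IFN-gamma. In all, 11 genes had no read in the 3 untreated libraries and a mean of at least 100 with IFN-gamma. Ubd, the ubiquitin-like protein FAT10, had 393, 565 and 430.4 with IFN-gamma and was at least 559.9-fold higher. Il1r2, the decoy receptor for IL-1, had 1133, 574 and 534 with IFN-gamma and was at least 936-fold higher. Faah, which degrades endocannabinoids, was at least 625-fold higher.

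The largest falls were smaller. Cmah, which makes the sialic acid Neu5Gc, had no read with IFN-gamma and 218, 306 and 395 untreated, and was at least 292-fold lower. Nptx1 and Nat8l were likewise without a read when treated, with 147, 161 and 153 untreated for Nptx1 and 108, 137 and 126 for Nat8l, and they were at least 141-fold and 114-fold lower. These 3 were the only tested genes with no treated read and an untreated mean of at least 100. Hpgd, which degrades prostaglandins, had 2.95, 12.4 and 8.25 normalized counts with IFN-gamma, against 790.1, 1488 and 1751 untreated (log2 change -7.34 ± 0.54, adjusted p = 1.78e-09), so that it moved against Ptgs2. Rhoj, a small GTPase, changed by -6.19 ± 0.33, Pde1c by -6.84 ± 0.43 and Itgb3, the integrin beta 3 chain, had 19.6, 7.89 and 5.9 normalized counts with IFN-gamma, against 877, 573 and 537 untreated (log2 change -5.90 ± 0.28, adjusted p = 4.81e-12). Dkk2, an inhibitor of Wnt signalling, had 1 read over the 3 treated libraries and 789 over the untreated ones, and Mamdc2 had 2 and 1123.

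Responses were even among the animals for most genes, with replicate 1 of the treated group as the exception. Of 10034 genes with a mean of at least 100, replicate 1 lay at least 2-fold above both other treated libraries in 96 and at least 2-fold below both in 54. The same counts were 1 and 3 for replicate 2, 3 and 5 for replicate 3, and at most 14 and 7 for any untreated library. Il1b, Ptgs2, Ccr7 and Ramp3 were among those higher in replicate 1. Ramp3, a partner of calcitonin-family receptors, had 617, 96.9 and 101 with IFN-gamma and no untreated read, and was at least 354-fold higher (adjusted p = 3.45e-06). Ier5l and Psrc1 came nearest to the untreated level in replicate 1. Ier5l had 110.0, 16.9 and 15.3 normalized counts with IFN-gamma, against 171, 227 and 199 untreated (log2 change -2.64 ± 0.49, adjusted p = 0.000145). Psrc1 had 137, 16.9 and 18.9 normalized counts with IFN-gamma, against 148, 122 and 145 untreated (log2 change -1.92 ± 0.49, adjusted p = 0.00248), with overlapping groups, and without replicate 1 the log2 change was -2.88 (adjusted p = 7.42e-10). Xcr1, Clec9a and Ch25h were lower in replicate 1 than in the other treated libraries. Without replicate 1, the log2 change was 4.94 for Il1b, 9.59 for Ptgs2, 6.80 for Ccl7 and -3.54 for Ier5l, and 7.98 for Xcr1, 7.87 for Clec9a and 7.76 for Ch25h. Ramp3 and Ccr7, with at most 1 untreated read, were called without it as well (adjusted p = 3.43e-05 and 5.98e-08). Of the 150 genes on which replicate 1 stood apart, 61 were called higher and 54 lower with it, and 117 were called without it. Of all 8922 calls, 8038 were also made without it, all with the same sign. Over the called genes whose mean was 100 or above, the log2 changes within an animal spread widest for Cd38, an ectoenzyme that consumes NAD, with 10.01, 6.96 and 6.29, and for Lrrc4, with 5.80, 7.57 and 9.71 in the 3 animals. Cd38 had 1032, 573 and 542 normalized counts with IFN-gamma, against 0, 3.61 and 5.93 untreated, so that the untreated values near 0 spread most on the log scale.

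**Figure D4:**
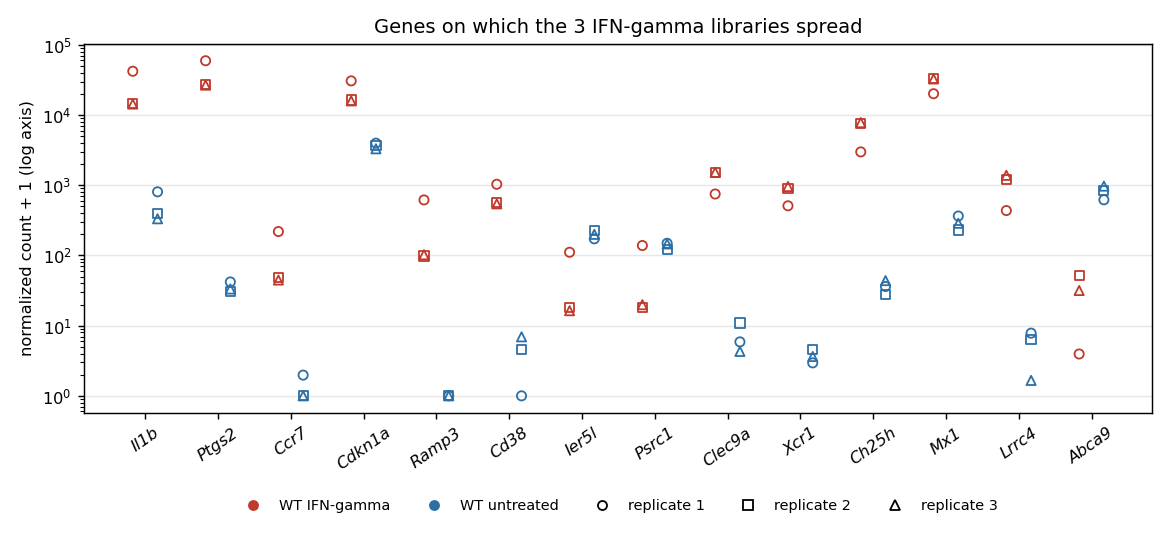
Normalized count + 1 (y axis, log scale) of 14 genes (x axis) on which the treated libraries spread, with WT IFN-gamma in red (left) and WT untreated in blue (right), and 1 marker shape for each replicate. Replicate 1 of the treated group (circles) is highest for Il1b, Ptgs2, Ccr7, Cdkn1a, Ramp3, Cd38, Ier5l and Psrc1, and lowest for Clec9a, Xcr1, Ch25h, Mx1, Lrrc4 and Abca9.

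Of the 461 genes at least 8-fold higher, 205 (44.5%) had another such gene within 100 kb. For the 307 genes at least 8-fold lower it was 57 (18.6%). These sets differ in size, and no expected share was computed. Positions are those of the deposited table (GRCm38). The MHC class II region, chr17:34092340-34316674, held 8 such genes, with log2 changes of 3.36 to 5.92, and 15 of its 16 tested genes were higher. The stretch chr1:173468485-173766943 held 7 genes of the Ifi200 family, DNA sensors of the nucleus and cytosol, and neighbours, at 3.27 to 6.56. The Ifit stretch, chr19:34473778-34650009, held 6 such genes, Ch25h among them. The duplicated genes of such families share sequence, so their values are not independent of how shared reads were counted.

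Set against IL-4, the IFN-gamma libraries differed in 8649 of the 14288 genes tested (60.5%), of which 4401 were higher with IFN-gamma (30.8%) and 4248 lower (29.7%). The markers of the 2 states named here fell on opposite sides, but not every list member did. Among the 17 alternative activation genes, 14 were lower with IFN-gamma than with IL-4 and 3 were higher. The 15 nitric oxide and arginine genes divided, with 5 higher and 7 lower with IFN-gamma. Cxcl9 had 111523, 118596 and 121122 with IFN-gamma, against 7.65, 0 and 8.75 with IL-4 (log2 difference 14.70 ± 0.75, adjusted p = 1.60e-11). Nos2 had 132459, 119531 and 111980.3 with IFN-gamma, against 719, 243 and 348 with IL-4 (log2 difference 8.26 ± 0.25, adjusted p = 2.42e-14). Arg1 had 0.982, 6.76 and 5.9 with IFN-gamma, against 7319, 4200.0 and 5491 with IL-4 (log2 difference -10.19 ± 0.48, adjusted p = 5.54e-12). Chil3 had 0, 0 and 4.72 with IFN-gamma, against 7005, 4587 and 5232 with IL-4 (log2 difference -11.59 ± 0.64, adjusted p = 4.81e-11). Mrc1 had 94.3, 171 and 249 with IFN-gamma, against 62567, 57764 and 58654 with IL-4 (log2 difference -8.54 ± 0.25, adjusted p = 1.57e-14), and the untreated level given above lay between them. The lectin Mgl2 and the gene Tmem26 were also among the largest differences, at -11.22 and -9.09 on the log2 scale. Some genes of the IFN-gamma response were present with IL-4 too. Socs1 had 10420.1, 10404 and 10415 with IFN-gamma, against 679, 967 and 1068 with IL-4 (log2 difference 3.55 ± 0.20, adjusted p = 4.84e-11). Cish had 1655, 681 and 657 with IFN-gamma, against 843, 492 and 602 with IL-4, and the difference was not called (adjusted p = 0.206). Cd74 had 243462, 213171 and 193039.7 with IFN-gamma, against 65598, 61741 and 61867 with IL-4 (log2 difference 1.77 ± 0.19, adjusted p = 2.46e-07).

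Both responses share the untreated libraries, so their changes are given side by side only. The list of cholesterol synthesis had a median log2 change of -0.84 with IFN-gamma and 0.89 with IL-4, and of the 18 members lower with IFN-gamma only Scap had a negative log2 change with IL-4 (-0.26). The list of alternative activation had medians of 0.00 with IFN-gamma and 4.31 with IL-4. The 0.00 was the value of Retnla and Ccl17, which were at 0 in the IFN-gamma and untreated WT libraries. That median therefore does not measure a response. The GBPs had medians of 8.96 with IFN-gamma and 0.87 with IL-4, and MHC class II had 3.87 with IFN-gamma and 1.08 with IL-4. Mitosis and G2/M genes had medians of -2.62 with IFN-gamma and -1.77 with IL-4.

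Ldha KO macrophages gave the series' second measure of the IFN-gamma response. Ldha itself had 9189.6, 9315 and 10124 in KO cells with IFN-gamma and 2128, 2261 and 2591 in untreated KO cells, against 36752, 38896 and 36197 in WT cells with IFN-gamma and 12204, 11939 and 10712 in untreated WT cells, so transcript remained in KO libraries. Lyz2 averaged 189 ± 15.6 in KO cells with IFN-gamma and 784 ± 92.2 in untreated KO cells (SD, n = 3 each), far below the WT values given above. The series title calls the deletion macrophage-specific, and the sources used here do not name the promoter that drove it. Across all genes tested, the KO and WT log2 changes correlated at Pearson r = 0.912, a description over genes, which are not independent replicates. The KO response was called for 55.8% of the genes tested. Of 6632 genes called in both genotypes, 6544 had the same sign. The difference between the responses, KO minus WT, was called for 1307 genes (9.15%), 615 higher (4.3%) and 692 lower (4.84%). With the code in the labels as a block, 3 codes within each genotype, the count was 2073. Leaving out single libraries gave 760 to 1251, and the count moved by over 1.5 times without WT untreated replicate 2 (760) or 3 (839) and without KO untreated replicate 2 (849) or 3 (806).

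**Figure D5:**
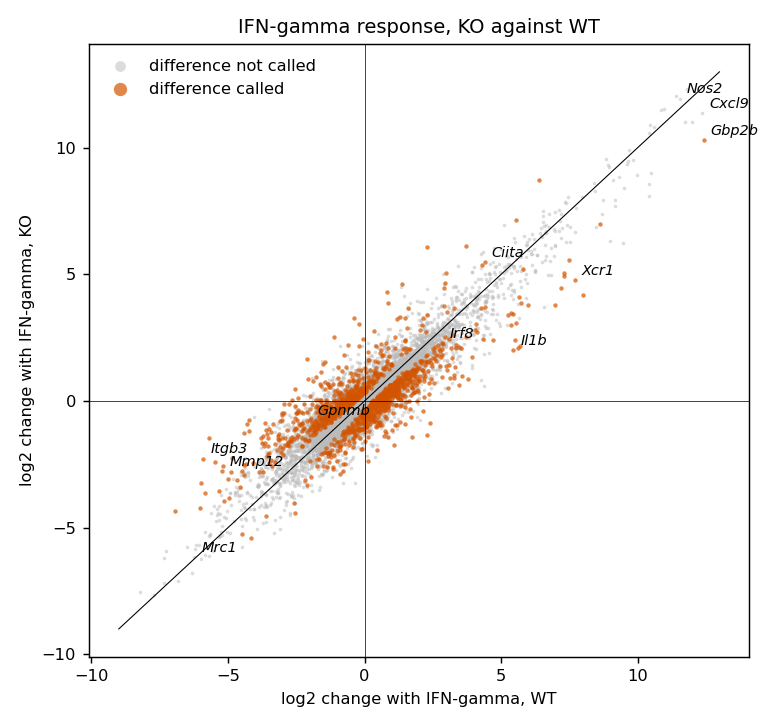
Log2 change with IFN-gamma in KO cells (y axis) against that in WT cells (x axis) for the 14288 genes tested. Orange points had a called difference between the 2 changes, grey points did not, and the diagonal marks equal changes. Il1b, Xcr1 and Irf8 lie below the diagonal, and Itgb3, Mmp12 and Gpnmb lie above it.

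For several genes with a large WT response no difference was called. Cxcl9 had a difference of -1.01 ± 1.06, Nos2 of 0.39 ± 0.35, Gbp2 of 0.28 ± 0.24 and Irf1 of -0.06 ± 0.15 on the log2 scale, and none of these 4 was called. Of the gene lists, chosen here after their counts were seen, the immediate early genes had a lower KO change in 13 of 24 and the inflammasome and cell death genes in 6 of 23, against 4.84% of all genes tested. Lysosomal genes had a higher KO change in 7 of 26, against 4.3%. Il1b had a log2 change of 2.01 in KO cells and 5.45 in WT cells, a difference of -3.44 ± 0.83, adjusted p = 0.0144. Itgb3 had a log2 change of -2.27 in KO cells and -5.90 in WT cells, a difference of 3.63 ± 0.39, adjusted p = 3.42e-05. Irf8 had 32106, 29258 and 30268 in KO cells with IFN-gamma and 5991, 6649.5 and 6341 in untreated KO cells, a difference of responses of -0.59 ± 0.10, adjusted p = 0.00107. Dio2, a deiodinase, had the largest difference, with a log2 change of -1.44 in KO cells and -5.71 in WT cells, a difference of 4.27 ± 0.50, adjusted p = 6.41e-05.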

How the data were processed

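RNA from 18 cultures was taken up in Trizol, selected for poly(A) and made into libraries with a directional kit, per the labels' protocols. Reads were aligned with STAR 2.5 to GRCm38 and counted per gene with HTSeq 0.6, and DESeq2 and edgeR are named without versions, per the submitters' processing notes. The sources used here do not say how HTSeq treated strand or reads that match several genes, so values of near copies, and of genes overlapped by another on the opposite strand, are uncertain. The deposited values are the authors' normalized counts, a signal equal to reads divided by a size factor for each library. Each column gave back whole reads, within 0.1 of a read, for 100% of its lower nonzero values. Larger values were rounded to whole reads without that check. The table held 21428 rows for 21380 gene identifiers, and where a symbol occurred more than once the most abundant row was used.

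From these values, limma 3.58.1 in R 4.3.3 was fitted to log2(normalized count + 1) with a trend, as 6 group means over all 18 libraries, for the genes at or above 10 in at least 3 libraries. The contrasts were WT IFN-gamma minus WT untreated, WT IFN-gamma minus WT IL-4, and the KO response minus the WT response. The mitochondrial share was compared by an exact permutation test. Counting intervals are 95% and exact, and they and the floor of 3 reads over a group cover counting error only. edgeR 4.0.16 and DESeq2 1.42.0 were run on the recovered reads as alternatives, beside other pseudocounts, filters, scalings, sample sets, the replicate block and leaving out single libraries. The scripts were tested on simulated data. Within a genotype, libraries with 1 number carry 1 code in the labels, and the replicate block is that code, so that WT and KO libraries share no block. In WT cells, deviations from the group means of IFN-gamma and untreated libraries with the same number correlated at 0.228, 0.118 and 0.198. Other pairs of these libraries gave -0.187 to 0.0336, so libraries of these groups with the same number were the more alike. Deviations within a group sum to 0, which by itself draws other pairs down when same-number pairs are positive. WT IL-4 libraries were alike by number for replicate 1 (0.222 with IFN-gamma, 0.236 untreated) but not for replicates 2 and 3. IFN-gamma replicate 2 correlated at 0.0487 with IL-4 replicate 2 and at 0.111 with IL-4 replicate 3. Untreated replicate 3 correlated at 0.00364 with IL-4 replicate 3 and at 0.0879 with IL-4 replicate 2. The reported fit has no block. The labels do not say that the codes are animals, and p-values measure the spread between these samples.

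Genes were named by a rule: the 15 largest log2 changes in each direction among genes with a mean of at least 100, the same sign in every animal and no overlap, up to 4 per list and direction, the largest differences of means, the genes with the widest spread over animals, 22 genes listed by symbol, and the 5 largest in each direction of the other contrasts. Not every gene the rule gives is described, and some list members outside it were chosen after their values were seen. The members, lists and rule were chosen with earlier results of these data known. Results of some genes, counted in the lists, are not reported here. Positions are those of the table. Promoter windows are from RefSeq, GRCm38.p6, and 71.6% of the genes tested had one, so no comparison of motif shares between gene sets was made.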

Additional observations from a re-analysis of the deposited data

Results flagged for a closer look

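The responses of KO and WT cells to IFN-gamma differed by a test of the difference itself (limma, KO log2 change minus WT log2 change) for 1307 genes, and named genes among them are given here with that difference. Among genes that were higher with IFN-gamma in WT cells, the KO change was lower for Nr4a3 (-3.54), Il1b (-3.44), Ifnb1 (-3.09), Xcr1 (-2.91), Ch25h (-2.25), Gbp2b (-2.11), Nfkbie (-1.46), Ass1 (-1.40), Hif1a (-1.08), Junb (-0.92), Prdx1 (-0.79), Ctsc (-0.59), Irf8 (-0.59), Il4ra (-0.49), Tpx2 (-0.45), Spi1 (-0.44) and Slc2a1 (-0.42). It was higher for Il12b (3.79), Slc7a2 (2.07), Ciita (1.08), Wars (0.48) and Ldha (0.36). Among genes that were lower with IFN-gamma in WT cells, the KO change was higher for Dio2 (4.27), Itgb3 (3.63), Fabp4 (3.40), Cxcl3 (2.67), Nat8l (2.59), Ctsk (2.47), Mmp12 (2.44), Cdkn1c (2.08), Epas1 (1.87), Stab1 (1.43), Trem2 (1.42), Cxcr4 (1.40), Itgax (1.36), Gpnmb (1.24), Fasn (1.21), Gas6 (1.07) and Ctsd (0.74). It was lower for Vsir (-1.09), Ccl9 (-0.74), Ifngr1 (-0.70), Fcgr2b (-0.61) and Lyz2 (-0.51). Not called in WT cells were Arg1 (2.51), Ccr2 (-2.05) and Ifitm2 (-1.24).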

How the results depend on the processing

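The count of genes changed by IFN-gamma in WT cells, 8922, ran from 7567 to 9484 over the alternatives and from 8040 to 8381 when a single library was left out. Genes at least 2-fold lower, 1990, numbered 1258 when a mean of at least 50 was required, since fewer genes were then tested, and 1865 to 1978 without a single library. Quantile normalization turned the split of 4481 higher and 4441 lower to 3804 and 4988. The count against IL-4, 8649, ran from 6887 to 9076, and from 8114 to 8683 without a single library. The difference between KO and WT responses, 1307, rose to 2073 with the replicate block (the cause was not tested), and ran from 760 to 1251 without a single library. Of the 8922 calls, 8038 were also made without replicate 1 of the treated group. The mitochondrial share differed by -0.977 to -0.874 percentage points without a single library. For 219 of the named genes, followed over 17 alternatives each, 3597 values kept direction and call, 13 genes lost a call at least once and 6 gained one. The replicate block over all 18 libraries ended the call of Zbtb46 and made those of Ccr2, 9930111J21Rik1 and 9930111J21Rik2. The block in the 6 WT libraries alone also ended those of Cks2 (adjusted p = 0.0544), Ctsb (0.0546) and mt-Co1 (0.0681), and neither changed another call among these 219 genes. Signs turned in 7 genes, of which Ifngr2 and Jak1 had been called. Both turned under quantile normalization, Ifngr2 to -0.0504 without a call and Jak1 to -0.21 with a call (adjusted p = 0.0333). The other 5 had not been called. Arg1 came to 0.0325 with a pseudocount of 5, 0.16 with quantile normalization, 0.16 with edgeR and 0.18 with DESeq2, and to -0.41 to 0.58 without a single library. Il10 came to 0.00578 with edgeR and 0.0334 with DESeq2, and to -0.67 to 0.52 without a single library. Ifitm2 came to -0.31 with quantile normalization and to -0.0425 to 0.0743 without a single library, Adgre1 to -0.15 to 0.0674 and Chil3 to -0.31 to 0.95. Few untreated reads limit the ratios of genes such as Cxcl11, Ccr7 and Ido1, whose counting intervals are wide.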
